A study of Mus musculus with 71 samples.

Results

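Suz12 peaks of at least 3 kb made up 516 of the 7480 peaks in the list from wild-type mouse embryonic stem (ES) cells of the 129B6F1 strain, immunoprecipitated for Suz12. They were chosen by their width alone, as the entries whose end lay 3000 or more bases beyond their start, so their width is a description and not a finding. The list came from 1 ChIP sample and holds coordinates only, with no height or score. The RNA of the genes they cover was read in 9 libraries of C57BL/6 ES cells in 3 groups of 3: wild type (WT), an Ezh1/Ezh2 double knockout (dKO), and cells labelled EZH2 rescue (rescue), which the series describes as made to express wild-type EZH2 again. Peaks and RNA thus came from different strains, while all of these cells grew on gelatin in 2i, a medium that keeps ES cells in the naive state. The sources used here do not say how the knockout was made, whether each line is 1 clone or what drives the EZH2 transgene. The other 61 chromatin samples of the series were not analysed here.

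Suz12 is the subunit that Polycomb repressive complex 2 (PRC2) is built around. With Eed and one of the methyltransferases Ezh1 and Ezh2, it places methyl groups on lysine 27 of histone H3, and the trimethylated form is bound by CBX proteins of Polycomb repressive complex 1 (PRC1). In ES cells PRC2 is best known for sitting on CpG-rich starts of genes that direct development, such as the Hox genes, which are kept at low expression until the embryo forms its body axis and organs.

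The 250 bases upstream of the annotated start of 6 genes under broad peaks show the sequence that lies beneath them. The genes were picked after their values were seen: Hoxa10, Six2 and Isl2 gained RNA in dKO, Otp and Lhx1 stayed near or at 0 counts in every group, and Sp5 lost RNA in dKO. Each is written 5′ to 3′ on the gene's strand from RefSeq on GRCm38.p6, the assembly behind mm10, with CG dinucleotides in capitals. The windows are chr6:52240855-52241104 (minus strand) for Hoxa10, chr17:85688255-85688504 (minus) for Six2, chr9:55540899-55541148 (plus) for Isl2, chr13:94875386-94875635 (plus) for Otp, chr11:84525535-84525784 (minus) for Lhx1 and chr2:70474673-70474922 (plus) for Sp5.
Hoxa10: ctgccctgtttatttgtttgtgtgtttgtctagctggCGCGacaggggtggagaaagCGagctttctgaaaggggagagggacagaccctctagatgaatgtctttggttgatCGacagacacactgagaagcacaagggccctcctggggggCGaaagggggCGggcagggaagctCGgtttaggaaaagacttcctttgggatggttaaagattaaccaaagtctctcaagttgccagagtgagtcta
Six2: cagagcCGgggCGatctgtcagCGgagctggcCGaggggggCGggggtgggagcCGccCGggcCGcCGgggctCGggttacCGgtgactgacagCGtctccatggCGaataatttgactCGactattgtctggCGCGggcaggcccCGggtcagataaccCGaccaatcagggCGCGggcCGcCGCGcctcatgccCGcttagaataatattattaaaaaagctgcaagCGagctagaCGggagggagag
Isl2: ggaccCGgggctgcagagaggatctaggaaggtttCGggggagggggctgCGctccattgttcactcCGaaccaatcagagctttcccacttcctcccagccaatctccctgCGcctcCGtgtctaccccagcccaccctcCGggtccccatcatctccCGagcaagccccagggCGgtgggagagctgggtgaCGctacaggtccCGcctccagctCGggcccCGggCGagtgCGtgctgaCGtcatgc
Otp: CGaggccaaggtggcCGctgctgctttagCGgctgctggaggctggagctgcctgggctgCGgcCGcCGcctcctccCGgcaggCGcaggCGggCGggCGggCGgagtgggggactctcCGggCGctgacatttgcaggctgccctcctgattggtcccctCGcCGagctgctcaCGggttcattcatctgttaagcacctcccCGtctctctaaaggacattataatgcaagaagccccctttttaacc
Lhx1: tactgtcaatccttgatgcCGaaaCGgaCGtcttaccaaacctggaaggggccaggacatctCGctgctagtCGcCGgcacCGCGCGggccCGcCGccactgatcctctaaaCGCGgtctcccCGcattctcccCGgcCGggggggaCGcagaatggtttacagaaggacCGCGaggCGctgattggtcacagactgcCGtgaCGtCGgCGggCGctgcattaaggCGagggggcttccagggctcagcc
Sp5: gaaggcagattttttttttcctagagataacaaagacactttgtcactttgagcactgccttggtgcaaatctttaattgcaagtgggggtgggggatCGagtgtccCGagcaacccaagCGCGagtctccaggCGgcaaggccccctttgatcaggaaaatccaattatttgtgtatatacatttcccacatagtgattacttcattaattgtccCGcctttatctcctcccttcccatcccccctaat
The number of CG dinucleotides in these stretches was 7 for Hoxa10, 26 for Six2, 16 for Isl2, 18 for Otp, 26 for Lhx1 and 6 for Sp5. Six2, with RNA that rose in dKO, and Lhx1, with almost none in any group, thus had the same number. The peaks that hold these windows were 4230 bases wide for Hoxa10, 10941 for Six2, 7739 for Isl2, 8400 for Otp, 12879 for Lhx1 and 6511 for Sp5. Over all 309 genes under broad peaks with a listed start, the window from 250 bases before to 50 after the start held a median of 21 CG dinucleotides (quartiles 14 to 30) at a GC content of 63.7%. The medians were 26 and 67.0% for genes whose widest peak was 1 to under 3 kb, 23 and 64.7% for genes with only peaks under 1 kb, and 9 and 54.0% for genes with no peak. By their RNA in dKO, the median was 23 in genes that rose, 22 in those that fell, 25 in those that did not pass the test and 19 in those with too few reads to test. The letters TATAAA, sought on both strands, stood in 10.7% of the broad-peak windows and in 13.0% of all 17928 windows. The share was 6.52% for peaks of 1 to under 3 kb, 5.32% for those under 1 kb and 14.7% with no peak. A match is a description of these letters only.

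The broad peaks ran from 3001 to 16063 bases, with a median of 4055 and quartiles of 3371 and 5430. They were 6.9% of the peaks and held 23.4% of the 10.4 Mb under all peaks. The 3 peaks just inside the threshold measured 3001, 3002 and 3003 bases; the second covers Gata6 and 1010001N08Rik and the third Bmp2. The 3 just outside measured 2989, 2997 and 2999 bases, and of these the one of 2997 bases covers Ntrk2, the receptor of the growth factor BDNF.

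**Figure D1:**
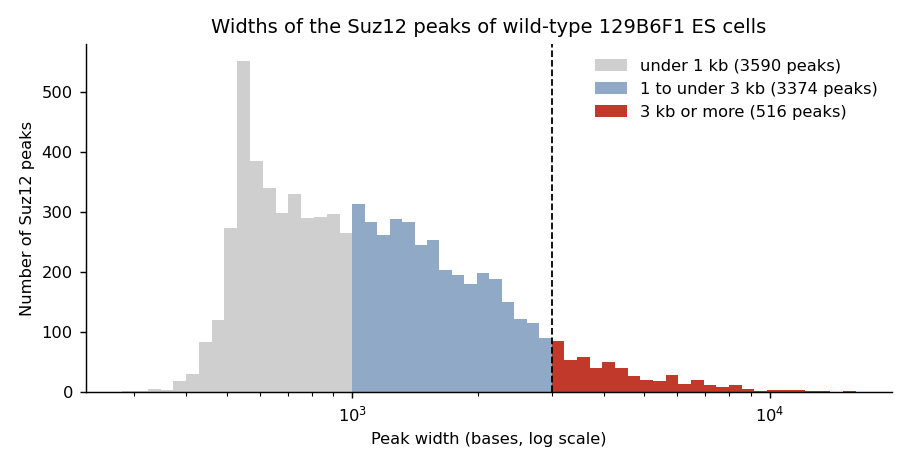
Number of Suz12 peaks (vertical axis) by peak width in bases (horizontal axis, log scale) in wild-type 129B6F1 ES cells, with the 3 kb threshold as a dashed line. The 516 broad peaks, in red, are the right tail of a single distribution that has no gap at the threshold.

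The 10 widest peaks over a counted gene lay on genes for transcription factors of the embryo. The widest, of 16063 bases on chromosome 11 (96289430 to 96305492), spans Hoxb5, Hoxb6 and Hoxb7, which pattern the body axis. It was followed by peaks at Ebf3 (15526 bases), Tfap2a with the neighbouring Gm26688 (14382), Sp9 (13431), Lhx1 with Lhx1os (12879), Hoxa9, Hoxa10 and the microRNA gene Mir196b (12194), Pax9 (12113), Dmrta2 (11843), Uncx (11697) and Otx1 (11454). Ebf3 acts in neurons, Tfap2a in neural crest, Sp9 and Uncx in forebrain and spine, Lhx1 in kidney and head formation, Pax9 in teeth and skeleton, and Dmrta2 and Otx1 in the cortex. A peak of 13389 bases on chromosome 13 (120024682 to 120038070) ranked among them but covered no start of a counted gene.

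A gene was counted as covered when an annotated start lay in a broad peak or within 1 kb of it, or, for genes with no listed start, when either end of the gene did. By this rule 402 of the 516 peaks (77.9%) covered a gene, against 67.8% of the peaks of 1 to under 3 kb and 52.9% of those under 1 kb. A wider peak reaches more starts, so these shares are not corrected for width. Of the other 114, 68 lay inside a protein-coding gene away from its start, 24 at the end of another RefSeq gene, 19 had no gene end within 1 kb and 3 lay on Un_GL456383, an unplaced contig absent from the gene table. Where a peak held the start of a single gene, which was so for 227 genes, it reached a median of 1393 bases upstream and 2865 bases downstream, and 174 of the 227 had more than 50% of the peak downstream.

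The covered genes numbered 456, of which 309 were tied by a listed start and 147 by either end. They comprised 393 protein-coding genes, 50 long non-coding RNAs, 8 microRNAs, 3 antisense RNAs, 1 pseudogene and 1 ribosomal RNA gene. Peaks over 1 gene numbered 344, those over 2 genes 50, those over 3 genes 7, and 1 peak covered 4. A total of 65 genes lay wholly inside 1 broad peak, 49 of them protein-coding.

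Broad peaks stood close to other Suz12 peaks. Another peak of any width lay within 10 kb of 257 of the 516 (49.8%), against 23.2% of the peaks of 1 to under 3 kb and 18.2% of those under 1 kb, and the median gap to the nearest peak was 10.4 kb against 55.7 kb in both narrower classes. Joined at gaps of at most 50 kb, 137 broad peaks (26.6%) fell into 49 clusters, 35 of them pairs and 14 with at least 3 peaks. With gaps of at most 10 kb the share was 21.7%, and with 100 kb it was 31.2%.

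Hoxa and Hoxd held the clusters with the most broad peaks. On chromosome 6 (52162432 to 52317292) 11 broad peaks covered 62.5 kb of 155 kb at Hoxa, including Evx1 and the non-coding Hottip. At Hoxd on chromosome 2 (74654356 to 74764422), 10 peaks covered 44.1% of 110 kb. Hoxb on chromosome 11 (96280929 to 96356558) had 5 and Hoxc on chromosome 15 (102953450 to 103061966) had 4. Other clusters surrounded Six3 (4 peaks), Foxf1 with Foxc2 and the non-coding Fendrr (3), Sox1 (3) and Onecut1 (3), which, Fendrr aside, encode developmental transcription factors.

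In 4 clusters of at least 3 peaks no developmental regulator was covered. On chromosome 6, 5 peaks lay in a stretch (47654273 to 47683501) in which RefSeq lists the small RNA gene Rn4.5s, the only counted gene they cover, and 6 protein-coding genes with Gm numbers; 3 of the peaks lay inside a protein-coding gene away from its start. Another 5 close by (47743469 to 47765650) covered no counted gene, in a stretch with 2 long non-coding RNAs. On chromosome 1 (171063714 to 171087212), 4 peaks spanned a stretch in which RefSeq lists 15 tRNA genes, Mir6546 and the Fc receptor gene Fcgr3. The 3 peaks on Un_GL456383 formed the fourth, and RefSeq lists no gene there. Whether reads could be placed uniquely in such stretches was not tested.

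**Figure D2:**
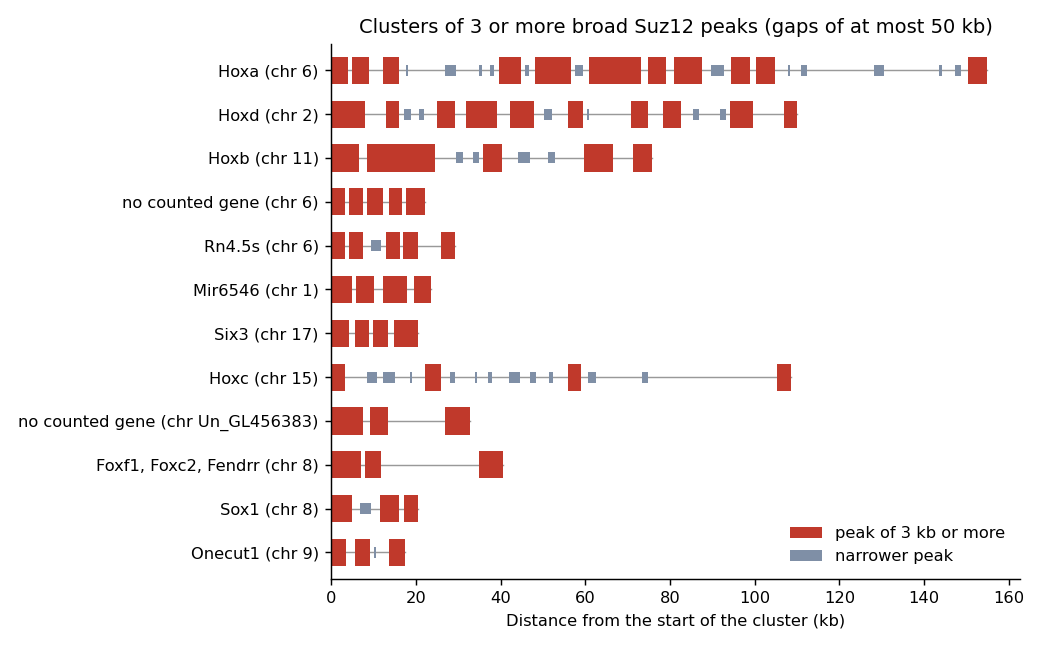
Of the 14 clusters of at least 3 broad Suz12 peaks, 12 are shown, each drawn from its own start (horizontal axis, kb). Tall red blocks are peaks of 3 kb or more and low grey blocks are narrower peaks; the Hoxa row has 11 red blocks over 155 kb and the Hoxd row 10 over 110 kb.

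Chromosome 2 held 54 broad peaks, chromosome 6 held 51, chromosome 11 held 41 and chromosome 8 held 40, while chromosome 16 held 7 and X held 1. Per 1000 protein-coding genes this was 45.3 on chromosome 6, 30.3 on chromosome 2, 10.3 on chromosome 16 and 1.04 on X.

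Genes for transcription factors made up much of the covered set. Of 335 factors in 9 lists of developmental factor families, 176 lay under broad peaks, which is 38.6% of the 456 covered genes. The same factors were 3.63% of the genes whose widest peak was 1 to under 3 kb, 0.836% of those with only narrower peaks and 0.282% of those with no peak. The lists were chosen with earlier results of these data known, so these shares are descriptions. Of the listed members, 24 of 39 Hox genes were covered, 75 of 113 other homeobox genes, 5 of 9 Pax genes, 16 of 25 Fox genes, 7 of 16 Sox genes, 4 of 17 T-box genes, 3 of 6 GATA genes and 18 of 54 basic helix-loop-helix genes. The lists do not hold every member of a family, and Foxp2 and Cux1, for example, are covered but not listed. Of a further 56 zinc finger and other factors 24 were covered. Secreted signals were covered less fully: 6 of 33 Wnt ligands and antagonists, 2 of 22 FGF ligands and 4 of 30 BMP and GDF ligands and antagonists. None of the 21 naive pluripotency genes, the 14 housekeeping genes, the 6 PRC2 core genes and the 7 PRC2 accessory genes was covered. Of 20 PRC1 genes 3 were, among them Bmi1 and Cbx8.

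The targeted genes were read before the members. Ezh1 stood at 49.9 ± 3.02 counts per 1000000 (CPM, scaled by TMM; mean ± SD, n = 3 libraries) in WT, 1.99 ± 0.301 in dKO and 2.88 ± 0.54 in rescue, and Ezh2 at 310 ± 2.98, 199 ± 13.4 and 560 ± 14.1. A lost exon leaves the rest of a transcript countable, so Ezh2 checks the dKO label only in part. Libraries held 12457622 to 36009529 counts, and 3 counts, taken as the limit that a count of 0 allows, equal 0.0833 to 0.241 CPM. On the second principal component of the 14145 genes with enough reads to test, dKO replicate 3 stood at 12.3, apart from -7.46 and -6.42 in the other dKO libraries. Nothing in the labels says that replicates are separate cultures, so p-values measure the spread between these libraries, which may be technical.

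In WT most genes under broad peaks had little RNA. Over all 456, tested or not, 202 had a mean under 0.1 CPM in WT, 100 in dKO and 156 in rescue, and the median was 0.138, 0.923 and 0.297 CPM. At least 1 CPM was reached by 125, 116 and 127 genes in the 3 WT libraries, by 216, 221 and 216 in dKO and by 152, 146 and 148 in rescue. The summed level of the 456 genes was 2027, 1971 and 1973 CPM in WT, 3315, 3362 and 3439 in dKO, beside 2311, 2365 and 2407 in rescue. In both measures every dKO library lay above every rescue library, and every rescue library above every WT library. In bulk samples, RNA from more cells and more RNA per cell cannot be told apart.

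Against WT, 222 of the 456 genes rose in dKO and 22 fell at an edgeR Benjamini-Hochberg adjusted p under 0.05 over the 14145 genes tested, of which 33.7% rose and 31.0% fell. Another 32 did not pass and 180 had too few reads to be tested. Over all genes with a position, tested or not, 19.8% rose and 18.2% fell, beside 48.7% and 4.82% of the 456. A change above 2-fold was seen in 197 of the genes that rose and 11 of those that fell. The median log2 fold change of the 276 tested was 1.95, beside -0.0026 over all tested genes with a position; 3 of the 276 had no reads in WT, and with those at their bound the median was the same. Many of these genes pass the filter on low counts only through dKO, where they are high. The shares and medians of tested genes, here and below, are therefore descriptions. Among the 121 covered genes with at least 1 CPM in WT, 79 (65.3%) rose and 21 (17.4%) fell, beside 27% and 35.9% of all 12006 genes at that level. The median log2 fold change of the 121 was 0.851, beside -0.0754 over the 12006. Without dKO replicate 3 the counts over the 456 were 232 and 25.

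**Figure D3:**
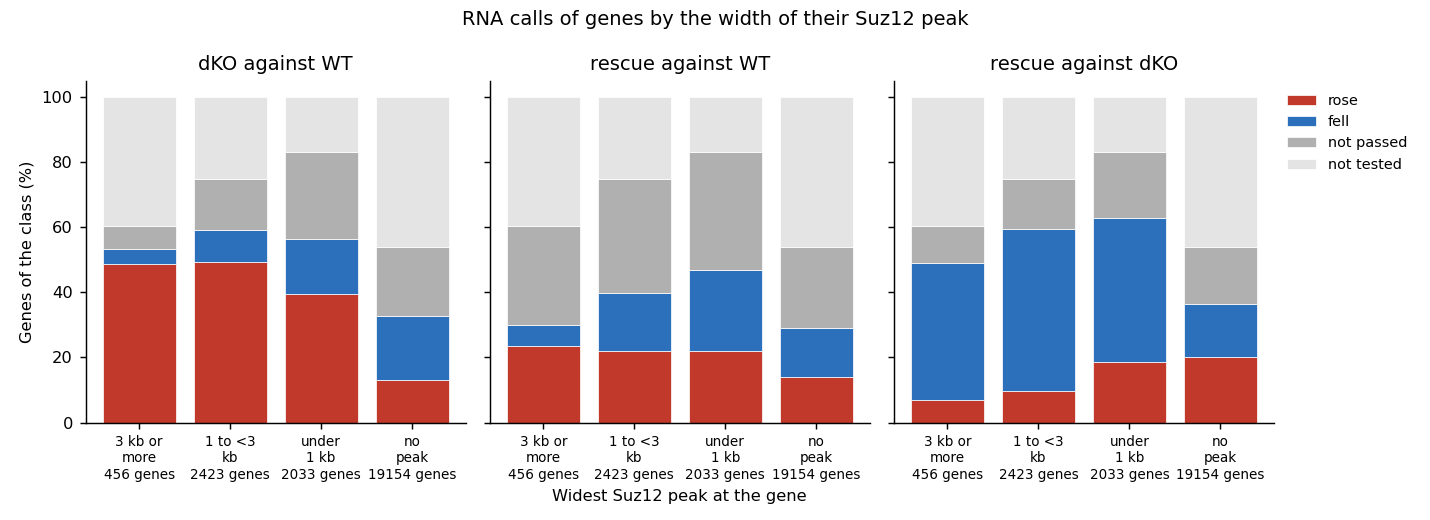
Share of genes (%) that rose (red), fell (blue), did not pass (dark grey) or were not tested (light grey) in each of the 3 comparisons, by the widest Suz12 peak at the gene. In dKO against WT 48.7% of the 456 genes under broad peaks rose and 4.82% fell, beside 13.2% and 19.7% of the 19154 genes with no peak.

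Peaks of 1 to under 3 kb covered 2423 genes, of which 1199 (49.5%) rose in dKO and 235 fell, with a median of 0.92 among those tested. Peaks under 1 kb covered 2033 genes, of which 802 rose and 348 fell (median 0.23). The share that rose was thus close in the broad and middle classes, 48.7% and 49.5%, while the share tested was 60.5% and 74.9%. Within the broad class, 97 of 188 genes rose and 14 fell at widths of 3 to under 4 kb, 74 of 156 and 6 at 4 to under 6 kb, and 51 of 112 and 2 at 6 kb or more. Over the tested genes alone their medians were 1.70, 2.35 and 2.66, and the shares tested were 67.6%, 58.3% and 51.8%. Genes of peaks that belong to a cluster numbered 96, of which 44 rose, 0 fell, 2 did not pass and 50 were not tested. Outside clusters 178 of 360 rose and 22 fell. None of these differences between classes was tested.

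**Figure D4:**
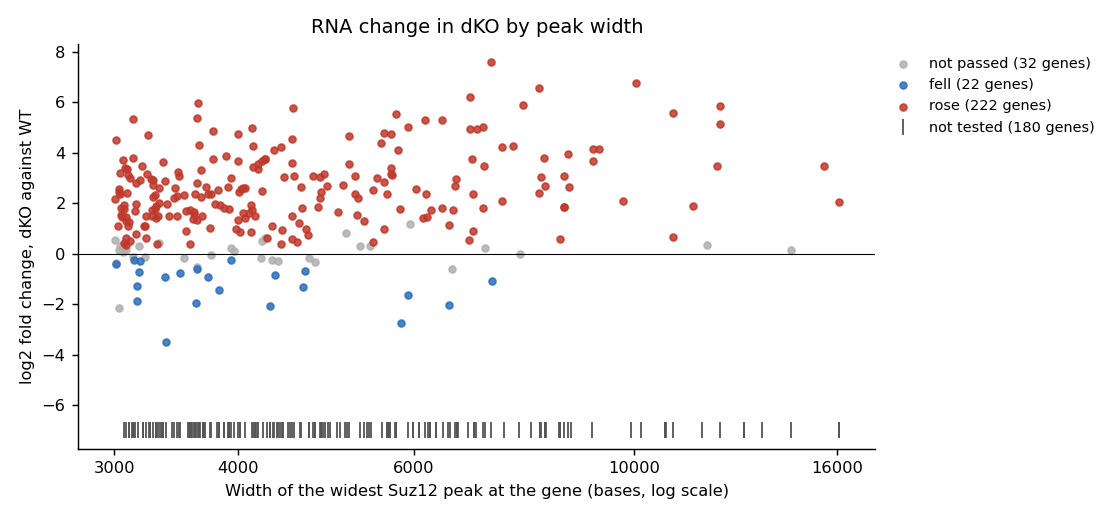
Log2 fold change of dKO against WT (vertical axis) of the covered genes by the width of their widest Suz12 peak (horizontal axis, bases, log scale), with ticks at the bottom for the 180 genes not tested. The 222 genes that rose span all widths, 20 of the 22 that fell lie under 6 kb, and untested genes occur at every width.

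Most Hox genes under broad peaks had more RNA in dKO. Of the 24 under broad peaks 17 rose in dKO, none fell, Hoxa5 did not pass and 6 were not tested; over all 39 Hox genes 28 rose, none fell and 2 did not pass. The median of the 18 tested was 3.57, which describes only those that passed the filter on low counts. Hoxa10, a posterior gene of limb and uterus, was at 0.207, 0.326 and 0.309 CPM in WT, 17.6, 13.8 and 19.7 in dKO, compared with 1.31, 0.794 and 0.821 in rescue. No value overlapped between the groups, which for WT and dKO was part of the rule that named it. It rose by 5.86 ± 0.27 (log2 fold change, SE; edgeR adjusted p = 5.12e-09) in dKO and by 1.79 ± 0.38 (adjusted p = 0.00174) in rescue against WT. Its neighbour Hoxa9, which shares the same 12194-base peak, was at 0, 0.0933 and 0.258 CPM in WT, 4.29, 4.78 and 4.67 in dKO, against 0.457, 0.327 and 0.432 in rescue. Hoxd9 was at 0.622 ± 0.065 CPM in WT, 5.49 ± 0.54 in dKO and 2.09 ± 0.23 in rescue. Under the widest peak of all, Hoxb7 rose from 0.564 ± 0.152 to 2.36 ± 0.44 CPM (log2 fold change 2.03 ± 0.30, edgeR adjusted p = 8.22e-05), while Hoxb5 had 0 counts in all 9 libraries and Hoxb6 had 2 counts, both in dKO replicate 3.

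Other homeobox genes rose in number but many stayed untested. Of the 75 listed ones under broad peaks 32 rose in dKO, 2 fell, 4 did not pass and 37 were not tested, and the median of those tested was 2.53. Six2, which maintains kidney progenitors, was at 0.138, 0.0466 and 0.0516 CPM in WT, 3.32, 2.90 and 4.91 in dKO, beside 1.09, 0.887 and 1.34 in rescue. Its groups did not overlap, which for WT and dKO was part of the rule that named it. It rose by 5.59 ± 0.43 (edgeR adjusted p = 4.14e-07) in dKO and by 3.83 ± 0.52 (adjusted p = 8.19e-05) in rescue. Pitx1, a hindlimb gene, was at 1.31, 0.699 and 0.825 CPM in WT, 18.5, 17.4 and 16.8 in dKO, compared with 1.34, 1.12 and 1.34 in rescue. The rescue and WT values of Pitx1 overlapped, and rescue against WT did not pass (adjusted p = 0.0907). Without WT replicate 1, the highest WT library, the 2 groups of Pitx1 differed by 0.75 (edgeR adjusted p = 0.0207). Barx1, a gene of teeth and stomach, went from 0.0868 ± 0.047 CPM in WT to 5.32 ± 0.53 in dKO and was at 0.311 ± 0.11 in rescue. Isl2, of motor neurons, had 3 counts in WT and 220 in dKO, a ratio of 72.2 after scaling by library totals (exact 95% interval 24.4 to 353).

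Among the listed members of the smaller families, to which the counts here refer, the genes that passed mostly rose. All 3 covered GATA genes rose: Gata2, of blood stem cells, from 7.11 ± 1.56 to 23.7 ± 6.68 CPM, Gata3, of T cells and trophoblast, from 1.60 ± 0.39 to 6.04 ± 1.58, and Gata6, of primitive endoderm, from 0.584 ± 0.25 to 11.9 ± 2.89. Of 16 Fox genes 8 rose, Foxi3 fell and 7 were not tested. Of 18 basic helix-loop-helix genes 7 rose, Ascl2 fell and 10 were not tested. Hand1, of trophoblast and heart, was at 0.0689, 0.0466 and 0.103 CPM in WT, 2.56, 1.88 and 6.07 in dKO, against 0.0857, 0.0467 and 0.0432 in rescue. Its dKO values lay above all others, which was part of the rule that named it, and the third dKO library held the highest. Of 5 Pax genes 3 rose and 2 were not tested, of 4 T-box genes 2 rose and Eomes fell by 0.24 ± 0.09, and of 7 Sox genes 3 rose, Sox11 fell and 2 did not pass. Leaving out WT replicate 1 or 2, dKO replicate 2 or rescue replicate 3, or fitting WT and dKO alone, took the call of Eomes away (edgeR adjusted p between 0.0522 and 0.149). Of 24 zinc finger and other factors 9 rose, Sall3 and Tshz3 fell, Tfap2a did not pass and 12 were not tested.

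Tfap2a had RNA in WT and gained little. Under 14382 bases of Suz12 peak it was at 6.89, 8.02 and 7.32 CPM in WT, 7.99, 7.76 and 8.74 in dKO, beside 9.12, 9.25 and 9.99 in rescue. WT and dKO overlapped, and the difference of 0.14 ± 0.11 did not pass (edgeR adjusted p = 0.292). Dmrta2, under 11843 bases, was at 0.914 ± 0.31, 1.23 ± 0.38 and 1.09 ± 0.21 CPM and passed in no comparison. Otx1, under 11454 bases and chosen after its values were seen, rose from 2.81 ± 0.27 CPM in WT to 10.5 ± 0.19 in dKO, and was at 6.74 ± 0.53 in rescue.

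Covered genes outside the factor families also rose. Ccnd2, cyclin D2 of the cell cycle, was at 1.24, 1.54 and 1.24 CPM in WT, 61.1, 65.6 and 32.5 in dKO, compared with 2.37, 3.22 and 2.33 in rescue. It rose by 5.28 ± 0.30 in dKO (edgeR adjusted p = 5.8e-08), with the lowest dKO value in replicate 3. Cbln1, a secreted organiser of cerebellar synapses chosen after its values were seen, was at 2.20, 2.14 and 2.06 CPM in WT, 63.3, 55.3 and 57.3 in dKO, against 6.83, 6.16 and 7.13 in rescue. All 3 groups stood apart, and dKO replicate 3 lay within its group. Podxl, a cell-surface sialomucin, was at 34.4, 30.8 and 31.3 CPM in WT, 171, 177 and 108 in dKO, beside 11.3, 11.6 and 11.3 in rescue, so that rescue lay below WT.

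**Figure D5:**
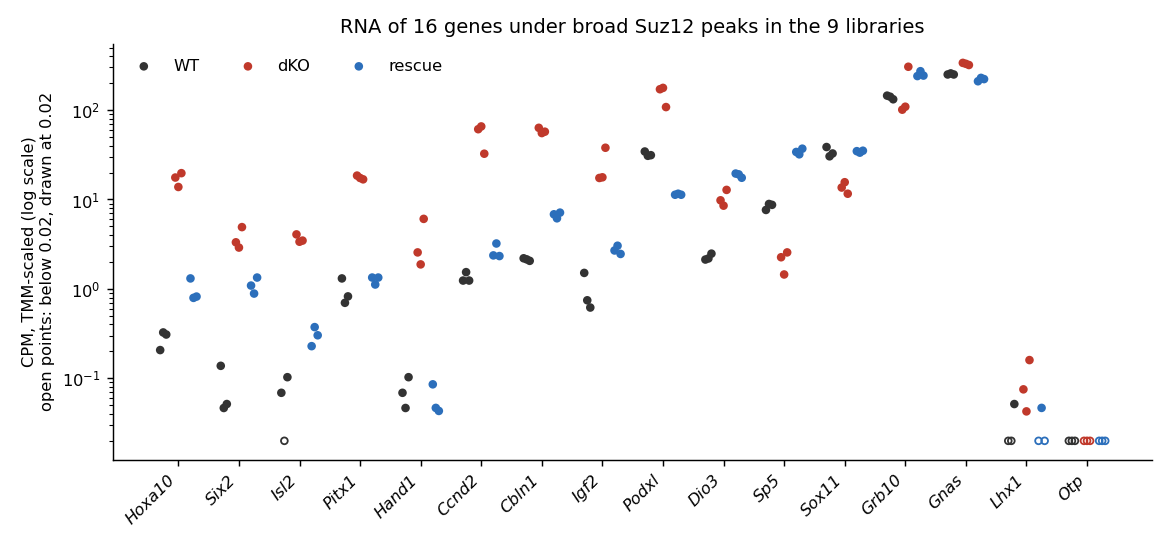
Level of 16 covered genes in each of the 9 libraries (vertical axis, CPM scaled by TMM, log scale), with WT in black, dKO in red and rescue in blue; open points are values below 0.02 drawn at 0.02. Hoxa10 through Igf2 are highest in dKO, Sp5 and Sox11 are lowest there, the dKO points of Grb10 run from 101 to 305 CPM, and Otp is at 0 throughout.

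Several genes that can be expressed from 1 parental copy lay under broad peaks, and Igf2 among them was chosen after its values were seen. The counts do not tell the parental copies apart. Not all such genes rose in dKO, as Mest and Ascl2 fell. Igf2, a fetal growth factor, was at 1.51, 0.746 and 0.619 CPM in WT, 17.4, 17.7 and 37.9 in dKO, compared with 2.69, 3.04 and 2.46 in rescue. Cdkn1c, a brake on the cell cycle, went from 1.69 ± 0.18 CPM in WT to 15.5 ± 5.98 in dKO and 6.61 ± 0.43 in rescue. In both, dKO replicate 3 was the highest library. Grb10, an inhibitor of growth-factor signalling, was at 145, 141 and 132 CPM in WT, 101, 109 and 305 in dKO, against 240, 272 and 243 in rescue. Its change in dKO was 0.31 ± 0.38 (edgeR adjusted p = 0.507) with all libraries and -0.41 (adjusted p = 4.86e-05) without dKO replicate 3, so 1 library decides its direction. Gnas, a G protein subunit, was at 252 ± 3.78, 328 ± 8.79 and 220 ± 9.40 CPM. Dio3, which inactivates thyroid hormone, was at 2.13, 2.19 and 2.48 CPM in WT, 9.79, 8.53 and 12.8 in dKO, beside 19.5, 19.1 and 17.5 in rescue, with rescue above dKO and dKO above WT in every library.

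The PRC1 genes Cbx8 and Bmi1 rose in dKO. Cbx8 was at 3.22 ± 0.55, 10.7 ± 0.35 and 5.08 ± 0.52 CPM in WT, dKO and rescue, and Bmi1 at 21.4 ± 1.38, 36.2 ± 0.70 and 26.1 ± 1.83. The groups of each gene did not overlap. The log2 changes in dKO were 1.75 ± 0.14 and 0.76 ± 0.08 (edgeR adjusted p = 6.63e-07 and 5.16e-06). Of the 20 PRC1 genes listed, all tested, 8 rose, 7 fell and 5 did not pass. Of all tested genes 33.7% rose and 31.0% fell in dKO, so the list as a whole did not stand out.

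Few signalling genes were covered, and they did not move alike. Of 6 Wnt genes 3 rose in dKO, Wnt5b fell and 2 were not tested; Wnt11 went from 0.518 ± 0.21 to 3.59 ± 0.36 CPM and Wnt5b from 5.17 ± 0.19 to 1.36 ± 0.26. Of 4 BMP and GDF genes Inhbb, an activin subunit, rose, Fst, the activin antagonist follistatin, fell from 16.4 ± 0.82 to 10.4 ± 2.62 CPM, Bmp2 did not pass and 1 was not tested. Both covered FGF ligands were untested, and of 3 Hedgehog and Notch genes Dll1 did not pass and 2 were untested. Of the 7 covered genes in the axon guidance and adhesion list 3 rose and 4 were untested. That list is not complete, and Nrp2, a covered semaphorin receptor outside it, fell. Both covered inhibitors of cyclin-dependent kinases rose, Cdkn1c as above and Cdkn2c from 3.74 ± 0.52 to 5.03 ± 0.41 CPM. For Cdkn2c that call was lost in DESeq2 (adjusted p = 0.0624) and, in edgeR, when WT replicate 2, WT replicate 3 or dKO replicate 2 was left out (adjusted p between 0.0834 and 0.0899).

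The 22 genes that fell in dKO were Dnajc22, Sall3, Lphn3, Sp5, Wnt5b, 1700097N02Rik, Nrp2, Gad1, Sox11, Dnah8, Onecut2, Grm8, Foxi3, Tshz3, Otx2, Ascl2, Fst, Mest, Pcdhga11, Zfp36l2, Vapa and Eomes, and 21 of them had at least 1 CPM in WT. Sp5, a Wnt target and transcription factor, was at 7.64, 8.91 and 8.71 CPM in WT, 2.26, 1.45 and 2.56 in dKO, against 34.0, 32.0 and 37.0 in rescue. It fell by 2.02 ± 0.17 in dKO (edgeR adjusted p = 8.77e-07) and rose by the same amount, 2.02 ± 0.13, in rescue (adjusted p = 3.8e-07). Sall3, a zinc finger factor, was at 4.75, 5.27 and 5.16 CPM in WT, 0.377, 0.853 and 0.878 in dKO, beside 10.6, 10.0 and 11.6 in rescue. In both genes rescue lay above WT and WT above dKO. Dnajc22, a chaperone of the DnaJ family, fell from 7.55 ± 0.88 to 0.597 ± 0.33 CPM and was at 6.11 ± 0.56 in rescue. Sox11, of neural progenitors, was at 38.6, 30.4 and 32.7 CPM in WT, 13.6, 15.6 and 11.6 in dKO, compared with 34.7, 33.4 and 35.1 in rescue, where WT and rescue overlapped. Dnah8, an axonemal dynein, and the non-coding 1700097N02Rik start at the same 3160-base peak and both fell, from 102 ± 9.89 to 42.7 ± 6.55 CPM and from 6.59 ± 0.83 to 1.87 ± 0.54.

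A large group could not be tested. Of the 180 such genes 129 were protein-coding, 33 had 0 counts in all 9 libraries and 179 were under 1 CPM in their highest library. Their mean in dKO was above that in WT in 127, below in 11 and equal in 42, with no test. Those named next, apart from Lhx1 and Sp9, were chosen after their values were seen. Otp, of the hypothalamus, had 0 counts in all 9 libraries under 8400 bases of peak, as did Six6, Evx2 and Foxb1 under 7389, 7867 and 8043. Lhx1 had 1 count in WT, 6 in dKO and 1 in rescue under 12879 bases. Levels this low lie under the limit that 3 counts allow, so a small gain was not detectable at this depth. Sp9 had 3 counts in WT and 20 in dKO, a ratio of 6.57 (exact 95% interval 1.95 to 34.5).

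Some genes under broad peaks had many reads in WT. The 8 with the highest WT level, on the CPM scale that is not divided by length, were Gnas, Vapa, Grb10, Dnah8, Elf2, Zfp516, Gse1 and Cux1. Vapa, of the endoplasmic reticulum, was at 241 ± 7.01, 202 ± 9.50 and 194 ± 6.40 CPM, with a log2 change of -0.26 ± 0.06 in dKO. Elf2 was at 95.5 ± 5.28, 100 ± 10.6 and 71.9 ± 1.67 CPM and did not pass in dKO (edgeR adjusted p = 0.441; 0.0257 without dKO replicate 3). Cux1 was at 57.1 ± 0.995, 51.1 ± 4.16 and 58.1 ± 3.46 CPM and did not pass in dKO either (adjusted p = 0.0801; 0.0056 without dKO replicate 3). A peak at such a gene was called in 129B6F1 cells, and the RNA is from C57BL/6 cells.

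With EZH2 expressed again, 193 of the 456 genes fell and 31 rose against dKO, where 38.2% of all tested genes fell and 32.1% rose, and the median of the 276 tested was -1.40. On like bases, 69.9% of the tested covered genes fell, and over all genes with a position, tested or not, 22.4% fell beside 42.3% of the 456. Against WT, 107 rose and 30 fell in rescue, beside 26.8% and 27.3% of all tested genes, with 139 not passed and a median of 0.54 (0.52 with Hoxd10, which had no reads in WT, at its bound). Of all genes with a position 15.7% rose and 16% fell there, beside 23.5% and 6.58% of the 456. The fall against dKO was not particular to broad peaks. It was seen in 49.9% of the 2423 genes under peaks of 1 to under 3 kb and 44.4% of the 2033 under narrower peaks. Of the tested genes in these 2 classes 66.6% and 53.4% fell. Against WT 21.9% and 22.0% of the 2 classes rose, and 17.9% and 24.9% fell, with no test between classes. The comparisons share libraries, so they are set side by side and not combined. Of the 24 Hox genes 17 fell against dKO and 8 rose in rescue against WT: Hoxa3, Hoxa7, Hoxa9, Hoxa10, Hoxc11, Hoxd9, Hoxd11 and Hoxd13. Of these, only Hoxa9, Hoxa10 and Hoxd9 were followed gene by gene with single libraries left out. Hoxa9 lost the call without WT replicate 2 or rescue replicate 1 (edgeR adjusted p = 0.0846 and 0.0668). Whether Hoxa3, Hoxa7, Hoxc11, Hoxd11 and Hoxd13 keep their calls in this way was not tested. Among them Hoxc11 had 2 counts in WT and 20 in rescue. Hoxa11 was at 0.110 ± 0.050 CPM in WT, 3.46 ± 0.46 in dKO and 0.144 ± 0.038 in rescue, and Gata6 at 0.584 ± 0.25, 11.9 ± 2.89 and 0.465 ± 0.050; in both, rescue and WT overlapped.

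Some covered genes had more RNA in rescue than in either other group. Besides Dio3, Sp5 and Sall3, these included Cdh2, N-cadherin, at 1.03, 1.54 and 1.60 CPM in WT, 2.71, 2.01 and 1.96 in dKO, against 8.80, 9.99 and 9.12 in rescue. Eomes, of mesendoderm and trophoblast, was at 15.6, 14.8 and 14.2 CPM in WT, 13.7, 11.6 and 12.7 in dKO, beside 43.0, 47.9 and 47.1 in rescue. No rescue value of these genes overlapped another group. Each was named by a rule that asks for groups that do not overlap in a comparison, so this was partly fixed beforehand. Foxd1, of the kidney stroma, went from 0.570 ± 0.27 and 1.59 ± 0.54 CPM to 4.90 ± 0.83, and Tchh, trichohyalin of hair follicles on chromosome 3, from 1.84 ± 0.15 and 3.64 ± 0.55 to 10.9 ± 0.84. The log2 changes of rescue against dKO were 2.10 ± 0.16 for Cdh2, 1.87 ± 0.09 for Eomes, 1.56 ± 0.25 for Foxd1 and 1.59 ± 0.14 for Tchh (edgeR adjusted p = 3.79e-07, 5.3e-09, 0.000136 and 8.75e-07). Mast1, a kinase, was high in both, at 1.27 ± 0.20, 11.1 ± 0.59 and 8.99 ± 0.38 CPM.

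Other covered genes were lowest in rescue. Chst11, a chondroitin sulfotransferase, was at 16.8, 17 and 15.4 CPM in WT, 97.9, 96.6 and 77.3 in dKO, compared with 6.00, 7.33 and 5.97 in rescue. Nell2, a neural secreted protein, was at 3.10, 3.12 and 1.86 CPM in WT, 12.1, 11.7 and 8.07 in dKO, against 0.343, 0.467 and 0.303 in rescue. Both thus rose in dKO and lay below WT in rescue, as did Podxl and Lmx1b, a limb and midbrain factor at 1.55 ± 0.43, 6.78 ± 0.94 and 0.360 ± 0.11 CPM. Nrp2, a semaphorin receptor, was lower than WT in both, at 15.5 ± 1.37, 4.91 ± 0.90 and 7.02 ± 0.16 CPM. The log2 changes of rescue against WT were -1.36 ± 0.12 for Chst11, -2.86 ± 0.32 for Nell2, -1.50 ± 0.17 for Podxl, -2.18 ± 0.32 for Lmx1b and -1.13 ± 0.12 for Nrp2. Sox21, on chromosome 14, was at 11.1 ± 0.77, 13.2 ± 4.2 and 2.03 ± 0.67 CPM.

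In rescue the genes of chromosome 14 had a median log2 change of -0.84 against WT and those of chromosome 3 one of -0.41, beside 0.0016 over all tested genes with a position. Without both chromosomes 101 covered genes rose and 25 fell against WT. Against dKO chromosomes 14 and 3 stood at -0.79 and -0.43 and chromosome 18 at 0.09, and without these 3 chromosomes 26 covered genes rose and 168 fell. In dKO against WT no chromosome differed from the median of all genes by more than 0.1.

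Markers of other cells moved with the groups. The summed level of 13 extraembryonic endoderm markers, of which 4 are covered genes, was 152 to 163 CPM in WT, 401 to 550 in dKO and 195 to 209 in rescue, with Ttr under 0.1 CPM in every group and Afp at 0 counts in WT. Of these 13, 10 rose in dKO, none fell and 3 were untested. A few genes carried the sum: Lamb1 alone was at 132 CPM in WT and 221 in dKO. Col4a1 and Col4a2 were at 9.00 and 6.41 CPM in WT and 120 and 79.2 in dKO. The sum of 10 fibroblast markers was 9.28 to 10.9, 62.4 to 68.1 and 17.1 to 19 CPM; 6 rose in dKO, and Col3a1, Dcn, Lum and Postn were under 0.1 CPM in every group. The sum of 12 trophoblast markers was 228 to 242, 306 to 343 and 180 to 185 CPM, with 7 up, 2 down and Tpbpa at 0 counts in every group. Tfap2c alone was at 167, 159 and 87.1 CPM. The sum of 21 naive pluripotency genes was 9380 to 9500, 8110 to 8180 and 11000 to 11100 CPM, and each of them was above 0.1 CPM in every group. In dKO 14 of the 21 fell, 4 rose and 3 did not pass. For comparison, 33.7% of all 14145 tested genes rose in dKO against WT and 31.0% fell, so calls in either direction were common. Whether the marker lists depart from these shares was not tested. The part of other cells in the RNA of the covered genes was not tested.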

How the data were processed

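RNA of 9 libraries and 1 list of Suz12 peaks were used; 61 chromatin samples were not analysed here, and 2 of these have titles and antibody labels that disagree. Groups follow the labels. The RNA files hold raw counts per gene, which the authors deposited unscaled. Trimmomatic, STAR 2.4.0, HTSeq and the build mm10 are named per the submitters' processing notes; the counting mode and gene models were not given in the sources used here. Per the labels' protocols the kit was TruSeq v2, which marks no strand, so overlapping and antisense genes cannot be told apart, and genes with near-identical copies are uncertain. The peak list deposited by the authors has coordinates and no other measured value; its caller, threshold and any pooling were not given in the sources used here.

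The tables name 24222 genes, with 0 entries that name no gene. A RefSeq table of GRCm38.p6 placed 22859 through the symbol and a further 1207 through a synonym, which left 156 without a position. Starts were listed for 17928; the other 6138 were tied to peaks by either end, so the rule differs between genes. Coordinates are 1-based. Clusters join broad peaks at gaps of at most 50 kb.

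edgeR 4.0.16 in R 4.3.3 (TMM, filterByExpr, glmQLFit robust, glmQLFTest) fitted all 9 libraries with 6 residual degrees of freedom; 14145 genes were tested, two-sided, and a call required an adjusted p (Benjamini-Hochberg) under 0.05. "Rose" and "fell" mean called. Library totals and the level of 3 counts stand in the report; the intervals and these limits reflect only counting error. Replicates differed by more than sampling noise (chi-square per degree of freedom 2.15 to 22.6). The script was tested on simulated data. Figures used matplotlib 3.10.9 in Python 3.11.15 and pandas 2.3.3.

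The members, the 24 gene lists and the rules were chosen with earlier results of these data known. Named genes are those of the 10 widest peaks; per comparison the 8 largest called changes each way with a mean of at least 2 CPM in the higher group and groups that do not overlap, without Gm and Rik identifiers; from each list the 3 covered members with the smallest adjusted p and 1 that did not pass; the 8 highest in WT; those at the threshold; and PRC2 core genes. Others named are said to be chosen after their values were seen, complete a stated count, or mark a cluster or peak. Alternatives were other scaling, no filter, DESeq2 1.42.0, 2 groups only, a replicate block, each library left out, other cover rules and widths, and chromosomes left out. Some genes under broad peaks are not reported here by name.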

Additional observations from a re-analysis of the deposited data

How the results depend on the processing

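The counts of covered genes that rose or fell were recomputed with RLE size factors, no filter on low counts, DESeq2, 2 groups only, each of the 9 libraries left out, starts strictly inside the peak, either end of the gene, any overlap with the gene body, without the chromosomes that shifted, and without peaks in clusters; each stayed within 1.5 times its value in the report. The labels number the replicates of every group. Deviations from the group mean had correlations of -0.112 to 0.201 between same-numbered libraries and -0.275 to 0.186 between the others. With 3 libraries per group such values cannot exclude a shared batch. With a replicate block 221 rose and 21 fell in dKO against WT, 105 and 31 in rescue against WT, and 32 and 191 in rescue against dKO; Eomes lost its call in dKO with the block (edgeR adjusted p = 0.0606). The width threshold moved every count. At 2 kb there were 1366 peaks and 1108 genes, of which 535 rose and 73 fell in dKO against WT, 244 and 131 in rescue against WT, and 84 and 502 in rescue against dKO. At 5 kb there were 155 peaks and 168 genes, with 76 and 4, 40 and 9, and 6 and 68. Among genes with at least 1 CPM in WT, 79 rose in dKO against WT, 44 rose in rescue against WT and 74 fell in rescue against dKO. With only genes that have a listed start, a setting chosen after seeing the data as was leaving out clustered peaks, these 3 counts were 144, 70 and 127; both settings count fewer genes. Of the values of named genes under the alternatives, 3655 kept direction and side of the threshold, 73 lost the call, 27 gained one and 1 reversed, Grb10 in dKO against WT without dKO replicate 3 (-0.41 against 0.31 with all libraries, and up to 0.57 without another library; the cause was not tested). The 180 untested genes had too few reads for a test at this depth.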
